A study of Homo sapiens with 6 samples.

Results

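The genes described here are 32 genes of S phase and DNA replication, out of 60664 genes in the count table. They were chosen by name, as genes for replication licensing, for the fork and for nucleotide supply. The choice was made with earlier results of these data known. All 32 were found by symbol and all passed the filter on low counts, with 168 reads as the lowest count of any of them in any library. RNA had been sequenced from HCT-8, a colorectal cancer line of human origin, in 2 groups of 3 libraries. The shPNISR group had been transfected with a plasmid for a short hairpin RNA against PNISR, and the shNC group with the control plasmid. No other agent or genotype separates the groups. Whether more than 1 hairpin was used, how long after transfection the RNA was taken, and whether the libraries of a group came from separate cultures is not stated in the labels. The p-values therefore measure the spread between these libraries, which may be technical.

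Before S phase, the origin recognition complex, CDC6 and CDT1 load the ring-shaped MCM helicase onto origins, which licenses them to fire once. In S phase, CDC45 and the GINS complex activate the helicase, the primase and the polymerases copy the strands, and the sliding clamp PCNA and its RFC loader hold the polymerases on the template. Many of these genes are targets of the E2F factors, which cyclin E with CDK2 helps release from the retinoblastoma protein at the G1 to S transition. Cancer lines that grow in culture usually express all of them.

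PNISR, the gene of a nuclear protein rich in serine and arginine, had 313, 333 and 450 reads in shPNISR 1 to 3, against 1002, 776 and 943 reads in shNC 1 to 3. The groups did not overlap, and PNISR fell by 1.33 on the log2 scale (SE 0.15, adjusted p = 8.73e-05 by the two-sided quasi-likelihood test of edgeR with Benjamini-Hochberg adjustment). An antisense gene, AL513550.1, overlaps it, and whether counting used strand is not stated, so the reads of the pair cannot be told apart. Library totals ranged from 15703210 to 17299847 counts in shPNISR and from 15049485 to 17977803 in shNC. On the first principal component (44.8% of the variance) of log2 CPM (a count scaled to library size, here with TMM factors) the shPNISR libraries lay at 24.1, 24.6 and 16.9, and the shNC libraries at -35.2, 0.79 and -31.2, so shNC 2 stood apart from the other shNC libraries, between them and the shPNISR group. Of 10 colorectal epithelial markers 8 were tested, all with fold changes above 0, and their summed level was 4855 to 6091 CPM in shPNISR and 4351 to 4962 CPM in shNC. KRT19 and CDH17 rose (adjusted p = 0.0365 and 5.74e-05), while KRT20 and GPA33 had at most 7 reads in any library. PTPRC, COL1A2 and TEK, which mark leukocytes, fibroblasts and endothelial cells, had no reads in any library. Other fibroblast markers were present: COL1A1 had 419, 323 and 400 reads in shPNISR 1 to 3, against 249, 314 and 218 in shNC 1 to 3 (log2 fold change 0.52, adjusted p = 0.0988), and FBN1 had 194, 131 and 237 reads in shPNISR 1 to 3, against 350, 313 and 164 in shNC 1 to 3 (-0.57, adjusted p = 0.234). The 4 of 7 leukocyte markers that were tested, of which LYZ fell (adjusted p = 0.0337), summed to 5.45 to 6.70 CPM in shPNISR and 4.36 to 5.66 CPM in shNC, the 5 of 8 fibroblast markers to 32.5 to 42.9 CPM in shPNISR and 27.9 to 45.0 CPM in shNC, and the 1 of 5 endothelial markers to 0.859 to 1.18 CPM in shPNISR and 0.276 to 0.971 CPM in shNC. The markers named here were picked from their lists after their values were seen, and the part of these markers in the results was not tested.

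Among the 32 replication genes, CDC6, which brings the MCM helicase to origins, fell to 61.9% of its shNC level, and no other passed the test. None rose. Over all 16102 tested genes, 0.832% fell and 2.3% rose by the same test, and since 1 is the smallest count above 0 in a list of 32, nothing particular to the list is read from it. At an unadjusted p under 0.05, none of the 32 was higher and 6 were lower (CDC6, RFC3, RRM2, RFC5, MCM10 and GINS1), beside 1607 higher and 1255 lower of all tested genes. DESeq2 called 0 of the 32 higher and 2 lower (CDC6 and RFC3), beside 477 higher and 229 lower of all genes in that fit. The fitted values leaned to one side: 27 of the 32 (84.4%) had a log2 fold change below 0, against 52.1% of all tested genes, with a median of -0.12 (quartiles -0.22 and -0.04) against -0.01. The groups did not overlap for 7 genes, all with lower levels in shPNISR (CDC6, RFC3, RRM2, RFC5, GINS1, RRM1 and POLE2), and for none with higher levels, while 9.58% of all tested genes were separate with lower and 11.5% with higher levels in shPNISR. In RNA from whole cultures, fewer cells in S phase and less of these RNAs per cell cannot be told apart.

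The fold changes of the 32 genes were mostly small. Their intervals cover only the spread between these libraries, which may be technical. The 95% interval of the fold change excluded a 2-fold fall for 32 of the 32 genes, a 1.5-fold fall for 28 of them, and a 1.5-fold rise for 32 of them. The 4 whose interval reached past a 1.5-fold fall were CDC6, RFC3, POLE2 and CCNE2. CDC6 had the interval farthest from 0, from -0.95 to -0.43. That interval reached past a 2-fold fall without shPNISR 1 (-1.09 to -0.48) and without shNC 2 (-1.04 to -0.55), and the interval of CDT1 reached a 1.5-fold rise without shPNISR 3 or shNC 2.

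**Figure D1:**
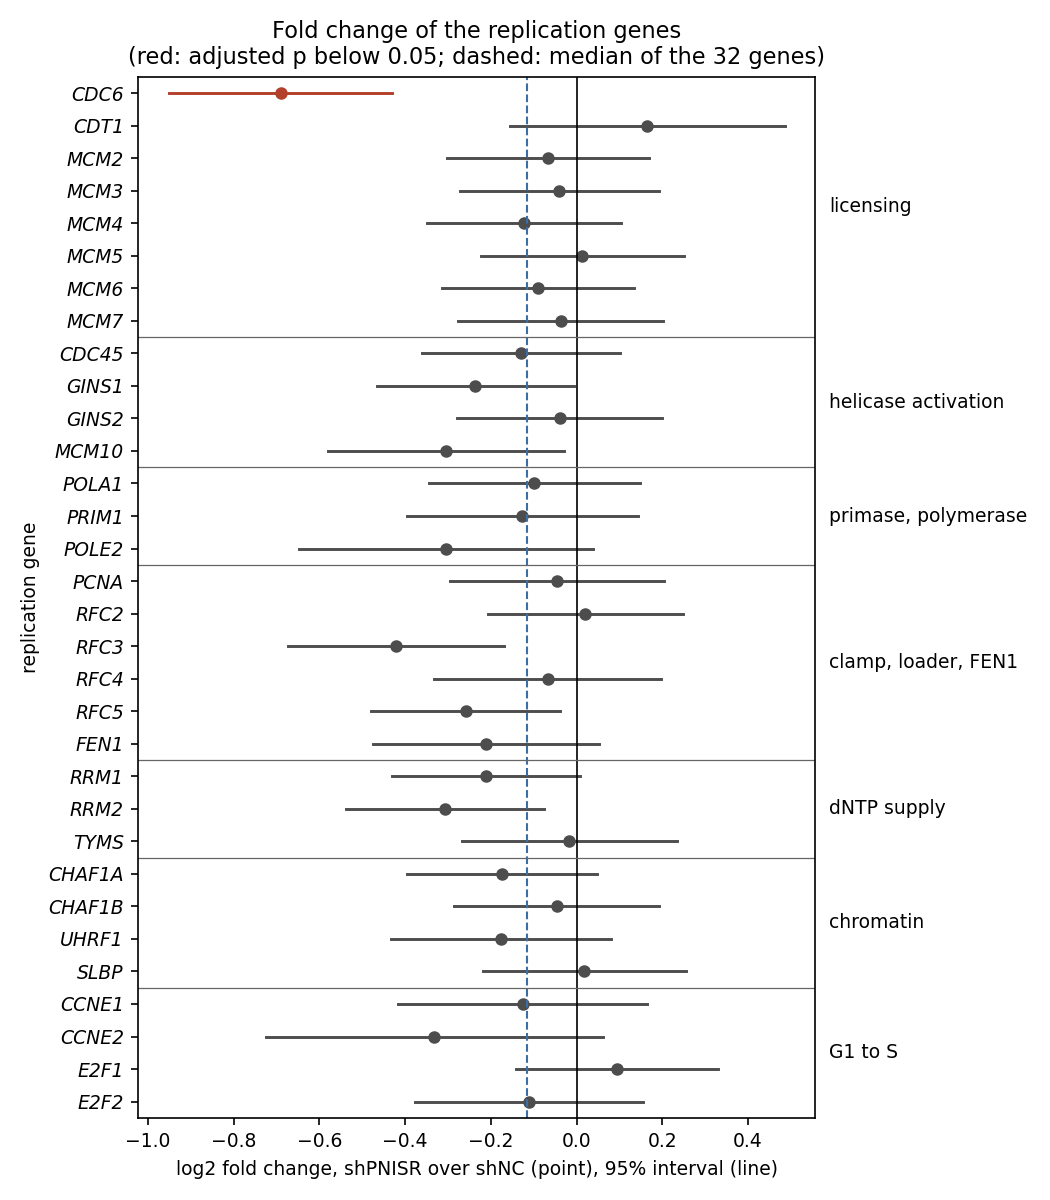
Log2 fold change of each of the 32 replication genes (shPNISR over shNC) with its 95% interval from the edgeR fit of 3 libraries in each group, ordered by role. CDC6, in red, is the one with an adjusted p under 0.05, and the dashed line is the median of the 32, at -0.12.

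Promoter sequence is shown for the gene that fell, CDC6, for the gene next to it in size, RFC3, and for the gene with the highest fold change, CDT1. Each line gives the 250 bases before the RefSeq start (GRCh38.p14), 5′ to 3′ on the strand of the gene, with capitals on matches to an E2F spelling. The annotated gene spans given below begin upstream of these starts (at 40287633 for CDC6, 33818049 for RFC3 and 88803213 for CDT1). The CDT1 window lies wholly inside its span, the CDC6 window lies inside its span but for its first few bases, and the RFC3 window lies inside its span in part. Those spellings were TTTCCCGC, TTTCGCGC, TTTGCCGC and TTTGGCGC, read on both strands, and, added after the CDC6 sequence had been read, TTTCCCGG, TTTCGCGG, TTTGCCGG and TTTGGCGG.
CDC6, chr17:40287629-40287878, plus strand: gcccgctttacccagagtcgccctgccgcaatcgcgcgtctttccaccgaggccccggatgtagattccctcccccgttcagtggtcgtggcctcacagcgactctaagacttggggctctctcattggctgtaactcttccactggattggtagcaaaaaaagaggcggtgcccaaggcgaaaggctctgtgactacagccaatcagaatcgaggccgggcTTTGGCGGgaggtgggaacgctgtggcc
RFC3, chr13:33817899-33818148, plus strand: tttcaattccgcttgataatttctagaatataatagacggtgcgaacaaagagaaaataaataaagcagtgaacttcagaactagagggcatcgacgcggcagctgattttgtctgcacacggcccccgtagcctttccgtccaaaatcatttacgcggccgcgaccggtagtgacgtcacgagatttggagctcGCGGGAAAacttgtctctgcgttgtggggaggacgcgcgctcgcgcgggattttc
CDT1, chr16:88803539-88803788, plus strand: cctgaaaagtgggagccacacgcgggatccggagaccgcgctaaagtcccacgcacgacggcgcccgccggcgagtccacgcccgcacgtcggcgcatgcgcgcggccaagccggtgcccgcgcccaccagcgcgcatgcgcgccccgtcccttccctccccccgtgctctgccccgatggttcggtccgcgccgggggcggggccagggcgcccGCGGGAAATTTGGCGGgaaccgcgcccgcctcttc
In CDC6 the single match begins 28 bases before the start, and the window also holds 3 copies of CCAAT, the box bound by NF-Y, counted on either strand. In RFC3 the match begins 55 bases before the start and lies on the other strand, and in CDT1 a pair of matches begins 35 and 27 bases before it, side by side and without overlap. Neither the RFC3 nor the CDT1 window holds a CCAAT. CDC6 held none of the 4 first spellings, and its match is to one added after its sequence had been read, so nothing is read from that match.

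Promoters from RefSeq matched 29 of the 32 genes by gene, all but CCNE2, MCM4 and MCM5. Of the 29, 12 (41.4%) held one of the 4 narrower E2F spellings in the 250 bases before any listed start, against 3.40% of 27305 genes. One of all 8 was in 15 (51.7%), against 6.36%. CDC6, CDC45 and POLE2 are among the 15 only through spellings added after the CDC6 sequence had been read. Nothing is therefore read from the share for all 8. CCAAT on either strand was in 17 (58.6%) of the 29, against 37.0% of the 27305 genes. Those 27305 are all genes with a listed promoter, whether tested here or not. They were not matched to the 29 in expression, GC content or number of starts. Matches that overlapped each other were each counted. The 15 genes with one of the 8 spellings, CDC6 included, had a median log2 fold change of -0.09, with 13 below 0. The 14 without one had a median of -0.15, with 12 below 0. Nothing is read from this split either, since it rests on the added spellings. A match to a spelling is a description of the letters and says nothing of binding.

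Origin licensing had 8 genes, of which 1 fell, none rose, and 7 did not pass, with a median log2 fold change of -0.05. CDC6 (ENSG00000094804, chromosome 17 at 40287633 to 40304657 in GRCh38, plus strand) had 83.6, 72.2 and 65.8 CPM in shPNISR 1 to 3, against 128, 102 and 128 CPM in shNC 1 to 3. Each shPNISR library was below each shNC library, and shNC 2 was the shNC library nearest to them. The means were 73.9 ± 9.03 CPM in shPNISR and 119 ± 15.1 CPM in shNC (SD, n = 3 each), a log2 fold change of -0.69 ± 0.12 (SE, edgeR adjusted p = 0.0041). No other annotated gene shares exons with CDC6. Its call ended when shPNISR 3 was left out (-0.61, adjusted p = 0.0515, range over all alternatives 3.37e-06 to 0.0515), and it stayed without shNC 2 (-0.80, adjusted p = 0.00016).

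CDT1, the partner of CDC6 in loading the helicase (ENSG00000167513, chromosome 16 at 88803213 to 88809258, plus strand), had the highest fold change of the 32 genes. It had 176, 169.9 and 151 CPM in shPNISR 1 to 3, against 121, 192 and 129.8 CPM in shNC 1 to 3. The groups overlapped because shNC 2 had the highest level of the 6 libraries, while the other shNC libraries were below all of shPNISR. The log2 fold change was 0.17 ± 0.15 (SE), and it did not pass (edgeR adjusted p = 0.605). Without shNC 2 it was 0.40 and passed as higher (adjusted p = 0.0279). With each library corrected for the GC content and length of genes it was -0.03 with all 6 libraries and 0.15 without shNC 2, and passed in neither. The range over all alternatives was -0.03 to 0.40.

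The 6 subunits of the MCM helicase ring lay close to their shNC levels, with log2 fold changes between -0.12 for MCM4 and 0.01 for MCM5 and adjusted p of 0.589 and above. MCM7 had 687, 621 and 551 CPM in shPNISR 1 to 3, against 641, 644 and 622 CPM in shNC 1 to 3. MCM2 had 487, 427 and 410.3 CPM in shPNISR 1 to 3, against 464, 490.0 and 433 CPM in shNC 1 to 3. The groups overlapped for both genes, and shPNISR 3 was the lowest of the 6 libraries for both. Per length of annotated exons (CPM per kb), the subunits ran in the same order in both groups, MCM7, MCM3, MCM2, MCM6, MCM4 and MCM5. By this measure MCM6 was above MCM4 in all 6 libraries, and MCM3 was above MCM2 in all but shNC 2. The length is that of all annotated exons of a gene together, 7338 bases for MCM5 and 3650 for MCM3. Values per kb, here and below, therefore depend on the annotation. In CPM alone MCM5 was above MCM6, with means of 315 against 246 in shPNISR and 312 against 262 in shNC. MCM7 made up 29.1 ± 0.65% of the summed ring level per kb in shPNISR and 28.8 ± 0.59% in shNC, and MCM5 made up 8.82 ± 0.27% in shPNISR and 8.43 ± 0.13% in shNC (SD, n = 3 each). The shares of the other subunits also differed by less than 1 percentage point: MCM3 had 19.7% in shPNISR and 19.5% in shNC, MCM2 had 18.6% in shPNISR and 18.7% in shNC, MCM6 had 12.3% in shPNISR and 12.6% in shNC, and MCM4 had 11.5% in shPNISR and 12.0% in shNC.

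Helicase activation had 4 genes, none of which passed, with fitted values between -0.30 and -0.04. GINS1, a GINS subunit, had 72.1, 71.1 and 65.2 CPM in shPNISR 1 to 3, against 84.8, 77.7 and 82.9 CPM in shNC 1 to 3. The groups were separate by a small gap, with a log2 fold change of -0.24 ± 0.11 (SE) and an edgeR adjusted p of 0.264. MCM10, which binds the active helicase and helps to bring in polymerase alpha, had 76.7, 69.6 and 73.4 CPM in shPNISR 1 to 3, against 103, 70.8 and 97.7 CPM in shNC 1 to 3. Here shNC 2 lay inside the shPNISR range and the other shNC libraries above it. The log2 fold change was -0.30 ± 0.13 (SE, edgeR adjusted p = 0.23), and without shNC 2 it was -0.46 and passed as lower (adjusted p = 0.0107, range over all alternatives 0.0107 to 0.724). GINS2 and CDC45 had log2 fold changes of -0.04 and -0.13, with overlapping groups.

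The 3 primase and polymerase genes did not pass. POLE2, the second subunit of polymerase epsilon, had 12.0, 12.8 and 11.7 CPM in shPNISR 1 to 3, against 14.2, 13.1 and 17.9 CPM in shNC 1 to 3. The groups did not overlap, but shPNISR 2 and shNC 2 nearly met, and the log2 fold change was -0.31 ± 0.16 (SE, edgeR adjusted p = 0.345). PRIM1, the catalytic primase subunit, and POLA1, the catalytic subunit of polymerase alpha, were at -0.13 ± 0.13 and -0.10 ± 0.12 (SE), with overlapping groups.

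In the group of the sliding clamp, its loader and the flap endonuclease, none of 6 genes passed, and the loader subunits did not lie at one value. RFC3 (ENSG00000133119, chromosome 13 at 33818049 to 33966558, plus strand) had 60.4, 76.7 and 68.2 CPM in shPNISR 1 to 3, against 95.3, 82.2 and 97.4 CPM in shNC 1 to 3. Each shPNISR library was below each shNC library, with shPNISR 2 and shNC 2 nearest to each other. RFC3 reached 74.6% of its shNC level, a log2 fold change of -0.42 ± 0.12 (SE), and missed the threshold (edgeR adjusted p = 0.0634). It passed as lower in 5 of 17 alternatives, with DESeq2 (adjusted p = 0.0392), with no filter on low counts (0.0215), without shPNISR 2 (0.0474), and without shNC 2 before and after the GC and length correction (0.0108 and 0.0137), and its adjusted p ranged from 0.0108 to 0.334 over all of them. RFC5 had 107, 109.7 and 97.7 CPM in shPNISR 1 to 3, against 129.7, 120.0 and 127 CPM in shNC 1 to 3. Its groups did not overlap either, at a log2 fold change of -0.26 ± 0.11 (SE, edgeR adjusted p = 0.201). RFC4 and RFC2, of the same loader, were at -0.07 ± 0.13 and 0.02 ± 0.11 (SE), with overlapping groups. The difference between subunits was not tested.

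PCNA, the sliding clamp, was level with shNC in the fit (-0.05 ± 0.12, SE). It had 265, 302 and 269.7 CPM in shPNISR 1 to 3, against 284, 249 and 331 CPM in shNC 1 to 3, so the shPNISR values lay within the shNC range. Per kb of exon, PCNA had the highest level of the 32 genes in both groups, 189.6 ± 13.6 CPM per kb in shPNISR and 196 ± 28.1 CPM per kb in shNC (SD, n = 3 each). FEN1, which cuts the flaps of Okazaki fragments, had 132, 131 and 113 CPM in shPNISR 1 to 3, against 153, 118 and 165 CPM in shNC 1 to 3. As with MCM10, shNC 2 lay among the shPNISR libraries and the other shNC libraries lay above them. The log2 fold change was -0.21 ± 0.13 (SE, edgeR adjusted p = 0.398). Without shNC 2 it was -0.34 (adjusted p = 0.0537), and with the GC and length correction as well it was -0.44 and passed as lower (adjusted p = 0.00291), while without shNC 3 it was -0.11 (adjusted p = 0.775).

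Deoxynucleotide supply had 3 genes, with none past the test. RRM2, the regulated small subunit of ribonucleotide reductase, had 298, 305 and 255 CPM in shPNISR 1 to 3, against 369, 335 and 356 CPM in shNC 1 to 3. RRM1, its large subunit, had 251, 254 and 226 CPM in shPNISR 1 to 3, against 284, 276 and 286 CPM in shNC 1 to 3. For both subunits every shPNISR library was below every shNC library, and shPNISR 3 was lowest. The log2 fold changes were -0.31 ± 0.11 for RRM2 and -0.21 ± 0.10 for RRM1 (SE, edgeR adjusted p = 0.145 and 0.3). Per kb the pair stood at 53.6 ± 5.09 and 58.3 ± 3.65 CPM per kb in shPNISR for RRM2 and RRM1, against 66.4 ± 3.25 and 67.5 ± 1.23 CPM per kb in shNC (SD, n = 3 each). TYMS, thymidylate synthase, which makes dTMP, had 211, 235 and 186 CPM in shPNISR 1 to 3, against 224, 184 and 231 CPM in shNC 1 to 3, and the groups overlapped (-0.02 ± 0.12, SE).

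**Figure D2:**
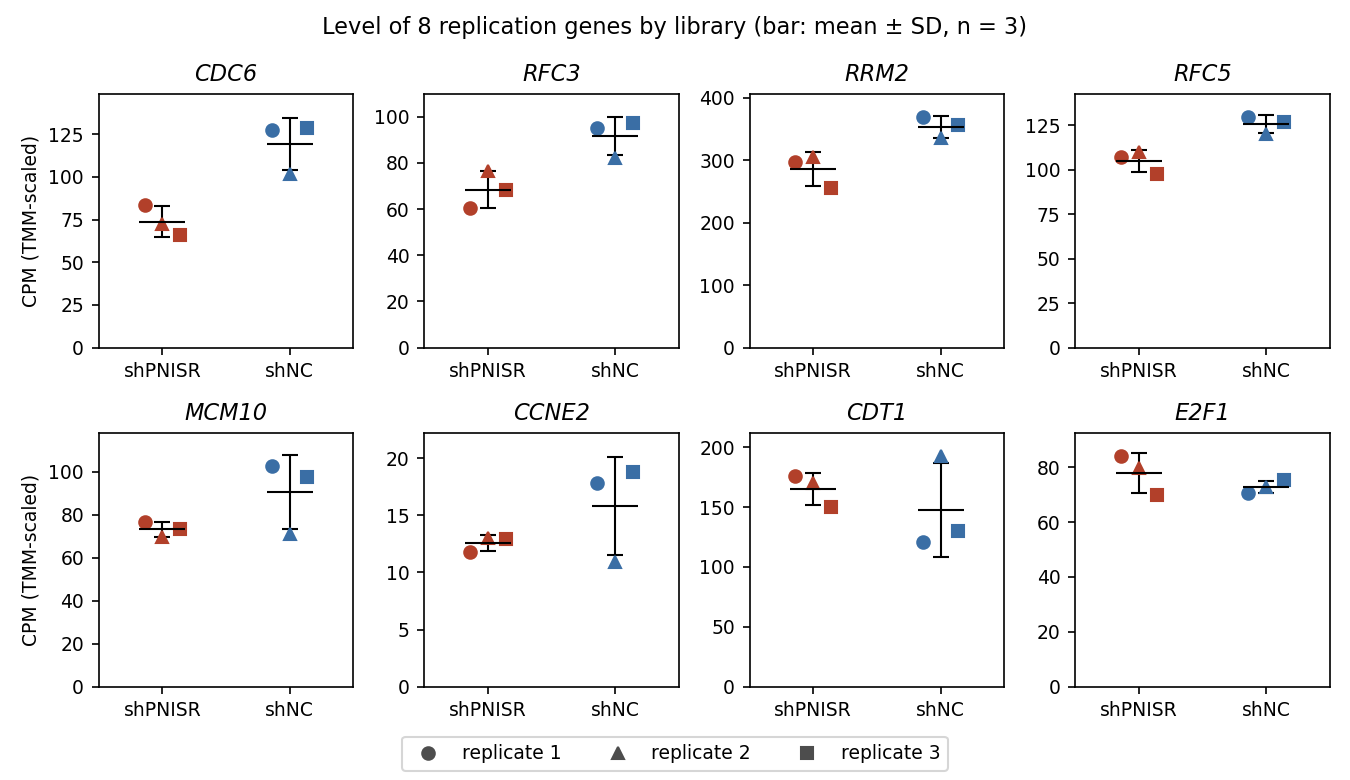
TMM-scaled CPM of 8 replication genes in each library (circle, triangle and square for replicates 1, 2 and 3), with the mean ± SD of 3 libraries. CDC6, RFC3, RRM2 and RFC5 have groups that do not overlap, while in MCM10, CCNE2 and CDT1 shNC 2 lies among or beyond the shPNISR libraries.

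Of the 4 genes for chromatin behind the fork, none passed. UHRF1, which guides DNA methylation to new strands, had 128, 116 and 123 CPM in shPNISR 1 to 3, against 154, 112 and 149.6 CPM in shNC 1 to 3, again with shNC 2 apart from the other shNC libraries. CHAF1A and CHAF1B, subunits of the CAF-1 histone chaperone, had log2 fold changes of -0.17 ± 0.11 and -0.05 ± 0.11 (SE). SLBP, which binds the stem-loop of histone mRNAs, was at 0.02 ± 0.11 (SE). The groups of all 4 genes overlapped.

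The 4 regulators of the G1 to S transition did not pass and did not share a sign. CCNE2, a cyclin E gene, had 11.8, 13.0 and 12.9 CPM in shPNISR 1 to 3, against 17.8, 10.9 and 18.8 CPM in shNC 1 to 3. Of the 6 libraries shNC 2 was the lowest, and the other shNC libraries were the highest. The log2 fold change was -0.33 ± 0.19 (SE, edgeR adjusted p = 0.373), and without shNC 2 it was -0.54 and passed as lower (adjusted p = 0.0208, range over all alternatives 0.0208 to 0.801). CCNE2 also had the lowest level per kb of the 32 genes, at 2.86 ± 0.158 CPM per kb in shPNISR and 3.60 ± 0.982 CPM per kb in shNC (SD, n = 3 each). CCNE1, the other cyclin E gene, had 35.9, 36.7 and 33.2 CPM in shPNISR 1 to 3, against 40.9, 30.8 and 43.8 CPM in shNC 1 to 3, the same arrangement of the shNC libraries.

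E2F1, the transcription factor whose targets include many of these genes, had 83.9, 79.7 and 69.8 CPM in shPNISR 1 to 3, against 70.7, 72.7 and 75.2 CPM in shNC 1 to 3. The groups overlapped, with shPNISR 1 and 2 above and shPNISR 3 below all of shNC, and the log2 fold change was 0.10 ± 0.11 (SE, edgeR adjusted p = 0.703). E2F2, a factor of the same family, was at -0.11 ± 0.13 (SE). The sign of the E2F1 value turned with the GC and length correction, to -0.10.

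The tilt below 0 was not even over the libraries. As the median over the 32 genes of each library's log2 CPM minus the mean of the 6 libraries, shPNISR 1 to 3 lay at -0.02, -0.04 and -0.16, and shNC 1 to 3 at 0.08, -0.03 and 0.13. The library with the lowest median was thus shPNISR 3, and shNC 2 lay among the shPNISR libraries. The same median over all tested genes was between 0.00 and 0.01 in every library. In shPNISR 1 to 3, 19, 21 and 32 of the 32 genes were below their mean over the 6 libraries, against 8, 18 and 6 in shNC 1 to 3. For 21 genes shPNISR 3 had the lowest level of all 6 libraries, and for none the highest. In the shNC group, shNC 2 had the lowest level for 22 genes and the highest for 6.

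**Figure D3:**
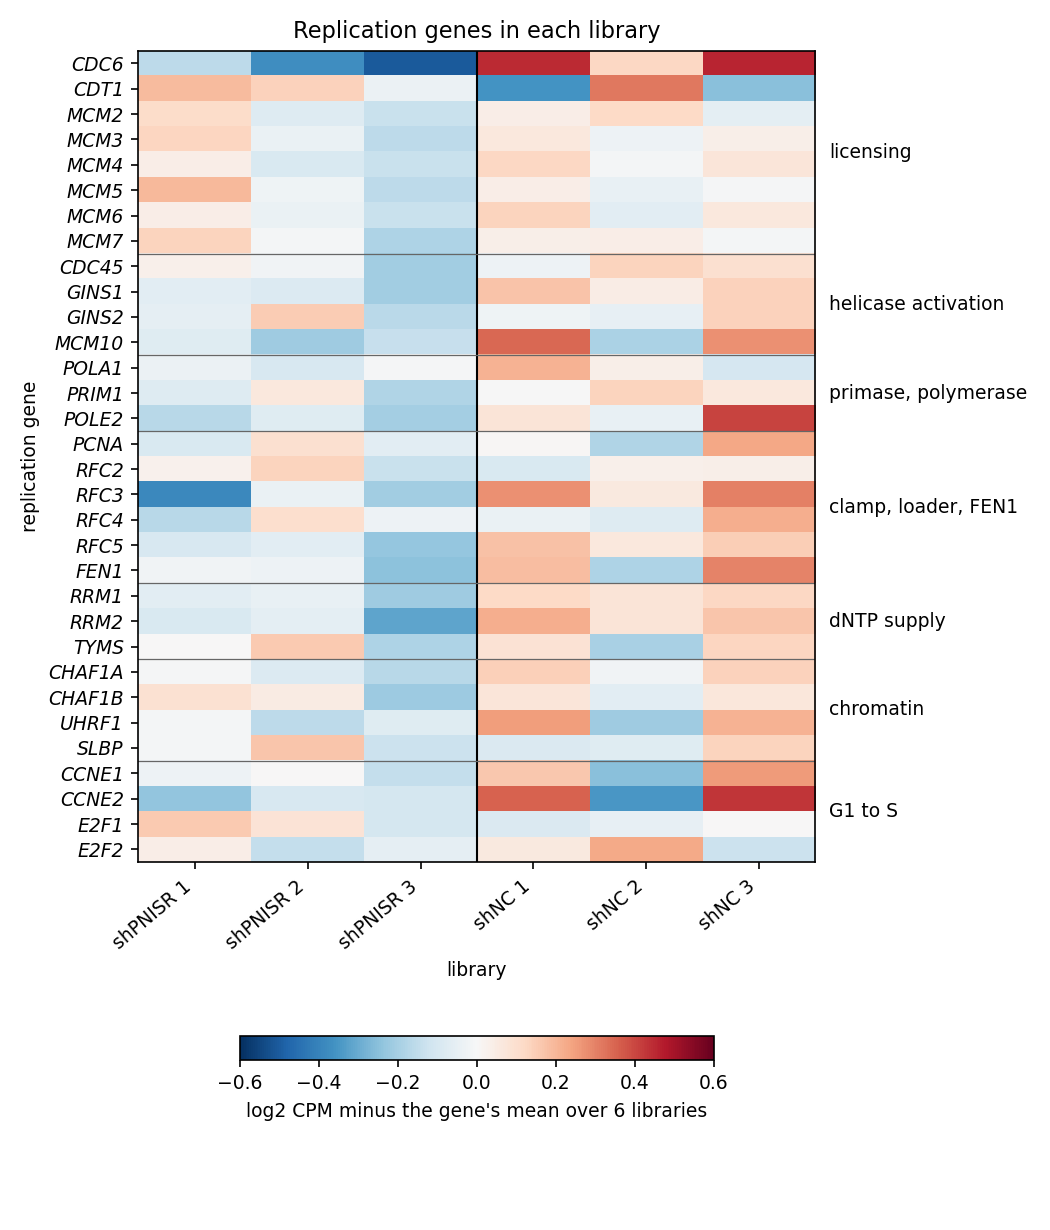
Log2 CPM of each of the 32 replication genes minus the gene's mean over the 6 libraries (color scale), shPNISR 1 to 3 left of the line and shNC 1 to 3 right of it. All 32 genes are below their mean in shPNISR 3, and shNC 2 is paler than, or opposite to, shNC 1 and shNC 3 in rows such as CDC6, CDT1, MCM10, FEN1 and CCNE2.

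Both libraries bear on the counts. Without shNC 2, 4 of the 32 genes fell (CDC6, RFC3, MCM10 and CCNE2) and 1 rose (CDT1), in a fit that called 1284 of all genes higher and 746 lower. Without shPNISR 3, none of the 32 passed in the edgeR fit, which called 177 higher and 73 lower, and 22 of the 32 values were below 0. Without shNC 3, 23 were below 0, and in the other fits that left out 1 library 27 to 29 were. The mitochondrial share of counts was 1.69%, 1.61% and 2.00% in shPNISR 1 to 3, against 2.42%, 1.80% and 2.48% in shNC 1 to 3, with shNC 2 inside the shPNISR range, and its part in these results was not tested.

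The fold changes of the 32 genes ran with the GC content of their transcripts. Across these genes, which are not independent replicates and share the same 6 libraries, Pearson's r was 0.58 and Spearman's rho 0.58. Over 15989 tested genes with a GC value r was 0.33 and rho 0.40. The 16 genes of higher GC content (49.3% to 65.2%), among them CDT1 and E2F1, had a median log2 fold change of -0.04. The 16 of lower GC content (38.5% to 49.1%), among them CDC6, RFC3 and CCNE2, had a median of -0.22. With the libraries corrected for GC and length, r was 0.08 and rho -0.02, the medians of the same sets were -0.11 for higher and -0.14 for lower GC content, and the median of all 32 was -0.13. The correction is built to take out a run with GC content over all genes, so its loss among the 32 is not read as a result. CDC6 still fell (-0.61, adjusted p = 0.00908). After the correction 31 of the 32 genes were below 0, all but POLA1.

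**Figure D4:**
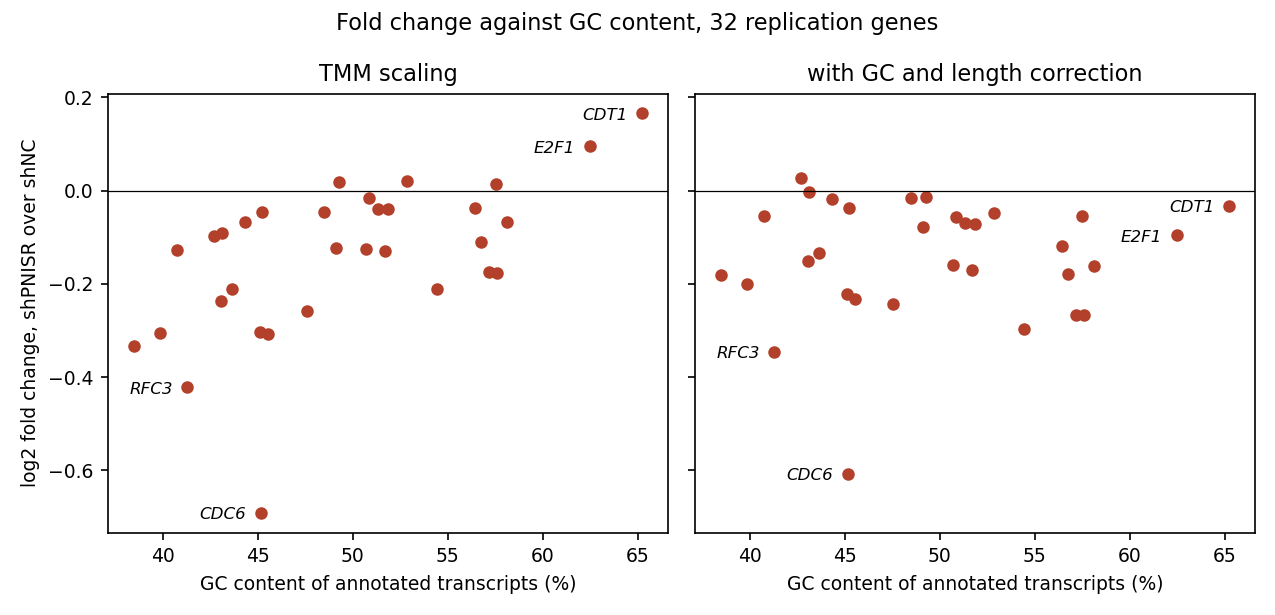
Log2 fold change (shPNISR over shNC) of the 32 replication genes against the GC content of their annotated transcripts, with TMM scaling on the left and after the GC and length correction on the right. The upward run on the left (r = 0.58) is absent on the right (r = 0.08), as the correction is built to take out such a run. On the right CDC6 still has the lowest value and CDT1 and E2F1 are below 0.

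Of 79 other replication genes, CLSPN fell, none rose, and 78 did not pass, while 0.832% of all tested genes fell and 2.3% rose. CLSPN encodes claspin, which links the fork to the checkpoint kinase CHK1. It had 47.6, 42.3 and 53.5 CPM in shPNISR 1 to 3, against 78.6, 59.1 and 65.5 CPM in shNC 1 to 3. The groups did not overlap, at a log2 fold change of -0.50 ± 0.13 (SE, edgeR adjusted p = 0.0436). Its call ended in 9 of 17 alternatives, with upper-quartile factors (adjusted p = 0.0528), a filter at a mean of 1 CPM (0.0515), library totals (0.0871), dispersion without the robust option (0.0561) and the GC and length correction (0.0735), and without shPNISR 1, shPNISR 2, shPNISR 3 or shNC 1 (0.197, 0.169, 0.0686 and 0.301). An exon of CLSPN overlaps a gene on the opposite strand, AL354864.1, so reads of the pair may be mixed.

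This wider list had a median log2 fold change of -0.14, with 66 of 79 (83.5%) below 0. At an unadjusted p under 0.05, 1 was higher and 15 were lower, beside 1607 higher and 1255 lower of all 16102 tested genes. Groups were separate for 17 with lower and for 3 with higher levels in shPNISR, beside 9.58% and 11.5% of all tested genes. Those 3 were LIG1, CCND3 and CDKN1A, and LIG1 and CCND3 are named after their values were seen. Per role, the gene of smallest adjusted p was TOPBP1 for origin firing (-0.43 ± 0.13, adjusted p = 0.0725), ORC6 for origin recognition (-0.30 ± 0.13, 0.246) and POLE, the catalytic subunit of polymerase epsilon, for the polymerases (-0.39 ± 0.13, 0.119). For Okazaki fragment maturation it was DNA2 (-0.31 ± 0.13, 0.23), for the clamp loaders and unloader ATAD5 (-0.31 ± 0.21, 0.459), for chromatin assembly ASF1A (-0.21 ± 0.14, 0.474) and for deoxynucleotide supply UMPS (-0.37 ± 0.13, 0.142), each with its SE and its edgeR adjusted p. Of the 64 of these genes with a promoter, 25% held one of the 4 narrower E2F spellings and 32.8% one of all 8.

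CDKN1A, the CDK inhibitor p21, lay on the other side of 0. It had 198, 201 and 178 CPM in shPNISR 1 to 3, against 139, 176 and 144 CPM in shNC 1 to 3. All shPNISR libraries were above all shNC libraries, though shPNISR 3 and shNC 2 nearly met. The log2 fold change was 0.33 ± 0.11 (SE), and it did not pass (edgeR adjusted p = 0.129). Without shNC 2 it was 0.44 and passed as higher (adjusted p = 0.0153, range over all alternatives 0.0153 to 0.547). An exon of CDKN1A overlaps a gene on the opposite strand, DINOL, so reads of the pair may be mixed.

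Of 33 genes listed for G2 and mitosis, none passed. At an unadjusted p under 0.05 none was higher and 2 were lower, beside 1607 higher and 1255 lower of all 16102 tested genes. Those 2 were CCNA2 and ASPM, named after their values were seen. The median log2 fold change of the 33 was -0.07, against -0.12 for the 32 replication genes, and 28 of 33 (84.8%) were below 0. Groups were separate for 1 of the 33, CCNA2, with lower levels in shPNISR, against 7 of the 32 replication genes and 9.58% of all tested genes. The best-expressed 2, TPX2 and BIRC5, which act on the spindle and at the centromere, had log2 fold changes of -0.01 ± 0.11 and -0.09 ± 0.11 (SE). The 8 E2F spellings were in 7.41% of their 27 promoters and CCAAT in 81.5%. The median GC content was 45.6% for the 79 other replication genes and 44.3% for the 33, against 49.2% for the 32 and 49.7% for all tested genes. The part of GC content in the tilt of the 79 and the 33 was not tested. The difference between the lists was not tested.

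**Figure D5:**
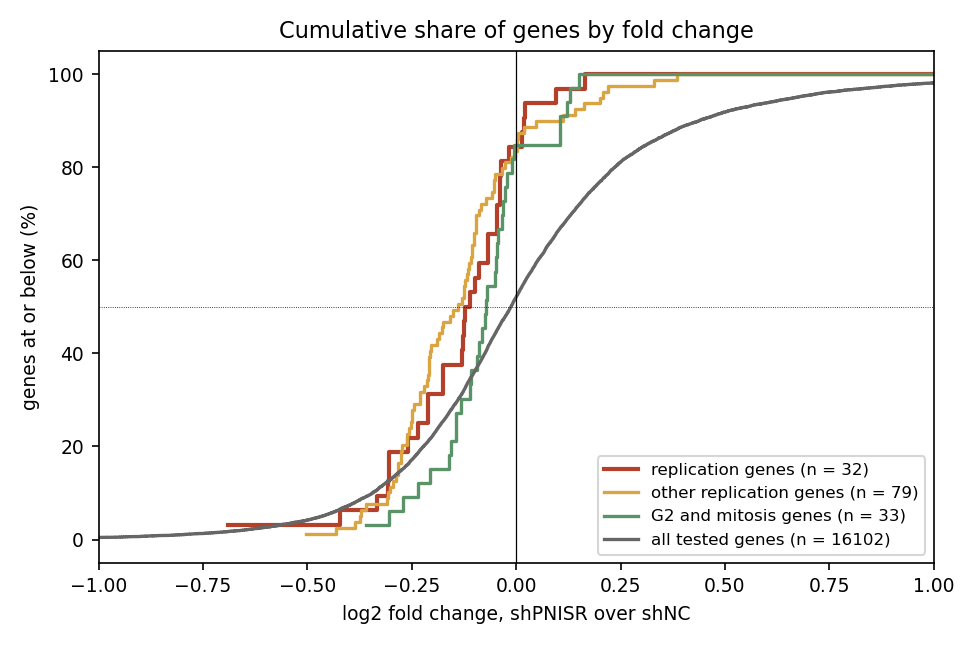
Cumulative share of genes (percent) at or below each log2 fold change (shPNISR over shNC, axis cut at -1 and 1) for the 32 replication genes, the 79 other replication genes, the 33 G2 and mitosis genes and all 16102 tested genes. The 3 lists cross 0 between 83.5% and 84.8%, against 52.1% for all tested genes. The values are without the GC and length correction.

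Exons of 19 of the 32 genes overlap no other annotated gene, CDC6, CDT1 and RFC3 among them. For 11 an exon overlaps a gene on the opposite strand, RFC5, RRM1, TYMS, CCNE2 and MCM7 among them, and for 4 a gene on the same strand, RRM2 and FEN1 among them, so reads of such pairs may be mixed or dropped. Named pseudogenes of 6 of the genes, PCNA, RFC3, RFC5, FEN1, RRM2 and TYMS, had at most 1 read in any library.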

How the data were processed

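RNA sequencing of HCT-8 cells gave 6 libraries, 3 shPNISR and 3 shNC. The authors deposited a table of raw, whole-number counts per gene, with 60664 Ensembl IDs, of which 60463 carry a symbol. Per the submitters' processing notes, HISAT2 2.0.4 and the build GRCh38 were used. Which program counted the reads, on which annotation and with which strand setting is not stated. Columns were matched to samples by title. Counts within a group varied beyond sampling noise (chi-square per degree of freedom 8.99 to 20.6), so no libraries were merged.

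Genes were filtered with filterByExpr (minimum count 10, minimum total 15), which left 16102, scaled with TMM factors and compared by the robust, two-sided quasi-likelihood test of edgeR 4.0.16 (R 4.3.3) over all 6 libraries, with Benjamini-Hochberg adjustment over all tested genes at 0.05. Standard errors were derived from fold change and test statistic, and intervals are 95% intervals. They cover the spread between these libraries. Principal components used log2 CPM with a prior count of 2. The script was tested on simulated counts. GC content, exon length, positions and overlaps came from GENCODE release 29, which held 99.3% of the tested genes, and promoters from RefSeq (250 of the bases before each start). The alternatives were DESeq2 1.42.0, DESeq2 size factors, upper-quartile factors, library totals, limma voom 3.58.1, no filter, a filter at a mean of 1 CPM, dispersion without the robust option, a replicate block, a correction for GC content and length (loess, span 0.4), and leaving out each library. The correction together with leaving out shNC 2 was added after seeing the data.

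The 32 genes, the lists of 79 other replication genes, 33 G2 and mitosis genes and cell type markers, and the tests were chosen with earlier results of these data known. Beside the 32, the text names PNISR and CDKN1A. Of the other replication genes it names each that passed and, for a role with none, the one of smallest adjusted p. Of the G2 and mitosis genes it names each that passed and the 2 of highest CPM. Other genes, markers included, were named after their values were seen. The plots used matplotlib 3.10.9. Splicing was not analysed here.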

Additional observations from a re-analysis of the deposited data

How the results depend on the processing

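The 17 alternatives left CDC6 as lower in 16 and PNISR as lower in 17, and the median of the 32 genes stayed between -0.14 and -0.08. Counts of genes that moved by more than 1.5 times were, with DESeq2, 229 lower over all genes, 2 lower among the 32 and 2 lower among the 79 other replication genes; with no low-count filter, 642 higher and 354 lower, with 2 and 3 lower in these lists; with library totals, 71 lower. None of the 79 was lower with library totals, upper-quartile factors, a filter at a mean of 1 CPM, dispersion without the robust option or the GC and length correction (0 each). With that correction and without shNC 2 the counts were 1228 higher and 928 lower, 8 lower among the 32 (CCNE1, CDC6, CHAF1A, FEN1, MCM10, RFC3, RFC5 and UHRF1) and 1 higher and 13 lower among the 79. Leaving out 1 library gave 133 to 1284 higher and 30 to 746 lower genes, 0 to 1 higher and 0 to 4 lower among the 32, and 0 to 1 higher and 0 to 7 lower among the 79. The causes were not tested.

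Fold changes near 0 turned sign. With upper-quartile factors TYMS was at 0.008 and TPX2 at 0.017. With the GC and length correction the values were CDT1 -0.032, MCM5 -0.054, POLA1 0.026, RFC2 -0.049, SLBP -0.013, E2F1 -0.096 and TPX2 0.025, and with shNC 2 also left out MCM5 -0.113, POLA1 0.037, PRIM1 0.038, RFC2 -0.036, SLBP -0.037, E2F1 -0.136 and TPX2 0.072. Over the fits without 1 library, the lowest and highest values were -0.079 and 0.091 for MCM5, -0.141 and 0.028 for RFC4, -0.047 and 0.088 for RFC2, -0.069 and 0.091 for SLBP, -0.111 and 0.025 for MCM3, -0.109 and 0.040 for MCM7, -0.135 and 0.027 for GINS2, -0.114 and 0.066 for TYMS, -0.096 and 0.043 for CHAF1B, -0.143 and 0.065 for PCNA and -0.051 and 0.060 for TPX2. None of these passed in any of those fits. Of the values of single genes, 658 kept their direction and side of the threshold, 27 newly passed, 10 no longer passed and 36 turned sign.

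Deviations from the group mean of shPNISR and shNC libraries with the same replicate number correlated at 0.12, -0.08 and -0.15. Those of different numbers correlated at -0.23 to 0.31, highest for shPNISR 2 with shNC 3. Such values, from groups of 3 libraries, cannot decide whether the numbers pair libraries. The main fit used no pairing. With the number as a replicate block, 390 genes were higher and 118 lower, with 0 higher and 1 lower among the 32 and 0 higher and 1 lower among the 79.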
